A study of Homo sapiens with 30 samples.

Results

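Open chromatin was described at 10 genes for transcription factors of the surface ectoderm and neural crest: TFAP2A, TFAP2B, TFAP2C, DLX3, DLX5, DLX6, GATA3, SNAI2, FOXD3 and SOX10. The genes were chosen by name, with earlier results of these data known, and a region belonged to them when it overlapped the gene body with 50 kb on each side in GRCh38. Peaks of the 10 deposited lists were merged wherever they overlapped by at least 1 bp. This gave 493444 regions, of which 282 lay at the 10 genes. A region is called open in a list that has a peak there and closed in a list that has none. Closed therefore means only that no peak was listed. The DLX5 and DLX6 windows overlap and share 21 of the 22 regions found in either, which were counted once in all totals of regions. Counts of genes and medians over genes take DLX5 and DLX6 separately.

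The assay was ATAC-seq, in which a transposase cuts accessible DNA, by the OmniATAC protocol with 50000 cells per library. All cells were wild-type H1, an established line of human pluripotent stem cells, and each group had 3 biological replicates per the labels. Undifferentiated cells (hPSC) were taken on day 0. Definitive ectoderm (DE) was taken on day 1, after 24 h with A8301 at 1 µM, trametinib at 250 nM, C59 at 1 µM and LDN193189 at 100 nM. Anterior neural ectoderm (aNE) was taken on day 2, after a further 24 h with A8301 at 1 µM, LDN193189 at 100 nM, C59 at 1 µM and thiazovivin at 1 µM. Posterior neural ectoderm (pNE), also of day 2, received A8301, LDN193189 and thiazovivin at those doses with TTNPB at 50 nM, FGF2 at 20 ng/mL and XAV939 at 1 µM. Both day 2 groups thus passed through DE and had the BMP receptor inhibitor LDN193189 throughout. Day 4 groups came from aNE or pNE cells kept in telencephalon (T), midbrain (M) or hindbrain (H) medium, giving aNE_T, aNE_M, aNE_H, pNE_T, pNE_M and pNE_H. The day 2 groups were plated at 37500 cells per square cm, the aNE-derived day 4 groups at 75000 and the pNE-derived ones at 150000. Origin and plating density therefore cannot be told apart on day 4. A single line in culture, with no surface ectoderm or neural crest group, limits the series as a model of these fates.

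At the border of the neural plate, BMP signalling favours surface ectoderm, and intermediate levels together with WNT and FGF signals favour neural crest. TFAP2A and TFAP2C, AP-2 family factors, act with GATA3 and the DLX homeobox factors in non-neural ectoderm and at the plate border. TFAP2B is a later AP-2 factor of crest and its derivatives. SNAI2, FOXD3 and SOX10 mark specified crest: SNAI2 is a zinc finger repressor, FOXD3 a forkhead factor that is also active in pluripotent cells, and SOX10 an HMG-box factor kept in migrating crest and glia. RNA was not part of these lists, so an open region says nothing here about expression.

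Each group has 1 list, with positions and no height, p-value or value per replicate. No replicate error can be given and no difference between lists was tested. Each count at the 10 genes is therefore set beside the same percentage over all 493444 regions. The lists held 177734 (aNE) to 325600 (pNE_H) peaks, with median widths of 264 to 308 bp. List length moves every count of open regions. Of 20 marker genes checked within 1 kb of the gene, 17 had at least 1 open region in all 10 lists, so single markers seldom separated the groups. The exceptions were POU5F1, KRT5 and KRT14. POU5F1, the pluripotency factor OCT4, had 2 open regions in hPSC and DE, 1 in aNE and none in pNE. On day 4 it had 1 in aNE_T, 1 in pNE_M and none in the other lists. The other pluripotency markers, NANOG, DPPA4 and ZFP42, had 5, 4 and 3 in hPSC and 4, 5 and 2 in pNE. The epidermal keratin genes KRT5 and KRT14 each had 1 open region in hPSC and in DE. KRT5 had 1 in aNE and none in pNE, and KRT14 had none in either. On day 4 KRT5 had 1 in aNE_M, 1 in aNE_H, 2 in pNE_H and none in the other lists. KRT14 had 1 in each aNE-derived day 4 list and none in the pNE-derived ones.

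Start sites of TFAP2A, TFAP2B and GATA3 are shown first, as the 250 bases before each start, because the results on these genes turn on them. The GATA3 starts at 8051236 and 8060457 are described below but not printed. Sequences are from RefSeq (GRCh38.p14), 5′ to 3′ along the gene's strand. The promoter table held entries for 5 of the 10 genes, with 11 starts in all: TFAP2A, TFAP2B, DLX6, GATA3 and FOXD3. Capitals mark matches to a TFAP2 motif (GCCNNNGGC) or a SOX motif (AACAAT, on either strand).
TFAP2A outer start, chr6:10419660-10419909, minus strand: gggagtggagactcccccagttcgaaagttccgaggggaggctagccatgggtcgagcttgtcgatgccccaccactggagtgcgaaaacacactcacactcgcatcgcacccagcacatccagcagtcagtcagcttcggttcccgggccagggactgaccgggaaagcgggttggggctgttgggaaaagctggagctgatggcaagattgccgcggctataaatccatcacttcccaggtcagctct
TFAP2A inner start, chr6:10412392-10412641, minus strand: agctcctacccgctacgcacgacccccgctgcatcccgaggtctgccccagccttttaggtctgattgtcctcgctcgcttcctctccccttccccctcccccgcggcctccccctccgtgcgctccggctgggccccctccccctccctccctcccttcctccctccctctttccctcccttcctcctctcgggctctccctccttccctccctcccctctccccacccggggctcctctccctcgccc
GATA3 outer start, chr10:8045083-8045332, plus strand: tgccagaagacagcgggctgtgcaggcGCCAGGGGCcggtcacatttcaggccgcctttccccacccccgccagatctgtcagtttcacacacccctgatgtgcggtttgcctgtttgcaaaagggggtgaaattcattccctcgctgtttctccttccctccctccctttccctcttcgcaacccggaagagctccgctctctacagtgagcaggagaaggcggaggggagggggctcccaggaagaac
GATA3 start at 8049854, chr10:8049604-8049853, plus strand: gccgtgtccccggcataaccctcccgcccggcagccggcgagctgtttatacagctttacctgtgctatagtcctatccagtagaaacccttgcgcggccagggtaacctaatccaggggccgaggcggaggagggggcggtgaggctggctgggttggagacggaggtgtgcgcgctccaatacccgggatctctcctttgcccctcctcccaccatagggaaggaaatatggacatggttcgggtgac
GATA3 start at 8053641, chr10:8053391-8053640, plus strand: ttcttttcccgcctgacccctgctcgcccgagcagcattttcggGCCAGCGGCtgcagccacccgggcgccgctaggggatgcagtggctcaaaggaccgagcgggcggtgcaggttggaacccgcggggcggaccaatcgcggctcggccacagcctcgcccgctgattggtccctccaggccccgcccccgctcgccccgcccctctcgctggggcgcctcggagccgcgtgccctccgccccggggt
GATA3 start at 8054688, chr10:8054438-8054687, plus strand: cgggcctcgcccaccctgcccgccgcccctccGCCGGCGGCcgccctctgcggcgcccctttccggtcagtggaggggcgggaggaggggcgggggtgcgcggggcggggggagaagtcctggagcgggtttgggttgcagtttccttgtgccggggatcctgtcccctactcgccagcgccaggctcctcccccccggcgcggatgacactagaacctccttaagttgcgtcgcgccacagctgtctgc
TFAP2B start at 50818871, chr6:50818621-50818870, plus strand: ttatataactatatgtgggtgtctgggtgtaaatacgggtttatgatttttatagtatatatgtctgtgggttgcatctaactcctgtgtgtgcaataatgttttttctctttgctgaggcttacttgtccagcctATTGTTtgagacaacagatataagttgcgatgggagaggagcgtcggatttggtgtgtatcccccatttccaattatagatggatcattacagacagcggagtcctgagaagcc
A GATA motif (AGATAA) was also searched, as was an E-box (CAGGTG), each on both strands, and no matches of different motifs overlapped in these stretches. Over 35116 promoters of this length, 19.8% held the TFAP2 motif, 9.17% the GATA motif, 17.5% the E-box and 8.98% the SOX motif. Of the 11 starts, 4 had a TFAP2 match (DLX6 and 3 of GATA3), 2 a SOX match (TFAP2B and the GATA3 start at 8060457) and 0 a GATA or E-box match. Such a match is a description of the letters only.

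The printed stretches differed in base composition and in which lists had a peak over them. The outer TFAP2A stretch had 59.6% G and C and 13 CpG, and peaks of 4 lists (hPSC, DE, pNE_M and pNE_H) reached into it. The inner TFAP2A stretch had 71.2% G and C and 15 CpG, and peaks of all 10 lists. At GATA3, the outer stretch (60.8% G and C, 11 CpG) had peaks in all 10 lists. The stretch before 8049854 (62.0%, 16 CpG) had peaks in DE and aNE alone, covering 188 and 151 bp. The stretches before 8053641 (74.8%, 30 CpG) and 8054688 (73.6%, 26 CpG) had peaks in every list except DE. Of the GATA3 stretches not printed, that before 8051236 had 94 bp of peak in DE. It also had 19 to 110 bp in aNE, aNE_M, pNE_T, pNE_M and pNE_H, and none in hPSC, pNE, aNE_T or aNE_H. The stretch before 8060457 had a peak in aNE_T alone, covering 163 bp. The TFAP2B stretch had 40.8% G and C and 5 CpG, and no list had a peak there. The median over all promoters was 58.0% G and C with 11 CpG.

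Definitive ectoderm held 154 of the 282 regions open (54.6%, against 46.9% of all regions). The pluripotent cells held 157 (55.7%, against 40.6%). Of the DE regions, 119 were shared with hPSC and 35 were gained, meaning open in DE and closed in hPSC. The gained ones made up 22.7% of the DE regions at the 10 genes, against 32.3% over all DE regions, and 31.2% among those within 50 kb of a protein-coding gene. Another 38 regions were lost, open in hPSC and closed in DE, which was 24.2% of the hPSC regions against 21.8%. Open in DE and in no other list were 10 regions (6.49% of DE regions, against 11.6%). Open in hPSC and in no other list were 12 (7.64% of hPSC regions, against 11.4%), and 9 of the 119 shared ones were open in these lists alone (7.56%, against 8.73%). Open in every list were 74 regions (26.2%, against 16.5%). Most open chromatin of DE at these genes was thus already listed in hPSC.

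Near gene ends the DE list added little. Within 1 kb of an annotated gene end, 3 of 39 DE regions were gained (7.69%, against 16.6%). Of the 46 hPSC regions there, 10 were lost (21.7%, against 4413 of 33919 over all regions). DE had 39 of the 63 regions there open (61.9%, against 64.3%). In each other list this share lay above that of all such regions, as in hPSC (73.0%, against 61.7%). Farther away, 32 of 115 DE regions were gained (27.8%, against 35.1%), and DE had 52.5% of regions open (against 44.7%). The window of the rule also holds other genes: TFAP2D beside TFAP2B, DLX4 beside DLX3, TAF3 beside GATA3, ALG6 beside FOXD3, and MICALL1, C22orf23 and POLR2F beside SOX10. Counting only regions whose nearest protein-coding gene is a member left 25 gained and 33 lost. Whether gains or losses were more numerous in total depended on the setting. Gains were more numerous with 10 kb flanks (14 and 12), 100 kb flanks (62 and 49), windows of 500 bp (36 and 34) and over 1 kb from gene ends (32 and 28), and losses in the other settings.

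**Figure D1:**
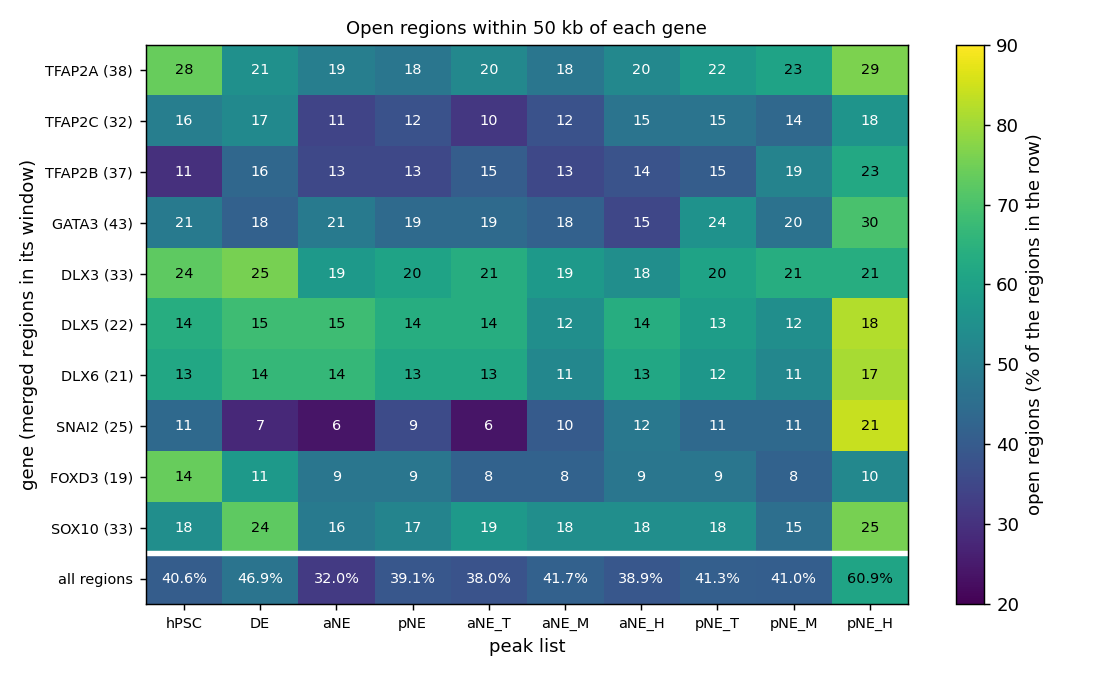
Open regions within 50 kb of each gene (rows, with the number of merged regions in brackets) in each of the 10 peak lists (columns). Cells give the number open, colour gives the percentage of the row's regions, and the lowest row gives the percentage over all regions. TFAP2A had 28 in hPSC and 21 in DE, SOX10 had 18 and 24, and the pNE_H list, the longest, had 69.1% of the member regions open.

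The genes differed in the balance of gain and loss. TFAP2B (7 gained, 2 lost), SOX10 (8 and 2), TFAP2C (6 and 5), DLX3 (3 and 2), DLX5 and DLX6 (2 and 1 each) gained more regions than they lost. TFAP2A (3 gained, 10 lost), GATA3 (5 and 8), SNAI2 (1 and 5) and FOXD3 (0 and 3) lost more. So 6 of the 10 genes gained more and 4 lost more, whereas 62.1% of 20037 protein-coding genes gained more and 21.8% lost more. The median was 3.0 gained and 2.5 lost for the 10 genes, and 4.0 gained and 2.0 lost for all protein-coding genes. The same 2 gains and 1 loss of DLX5 and DLX6 enter this count of genes and the median as 2 genes. The order of the medians for the 10 genes therefore rests partly on counting them separately. In all 8 other settings SOX10 gained more and TFAP2A lost more, though by nearest gene SOX10 had 1 gained and 0 lost, and within 10 kb TFAP2A had 0 gained and 2 lost. Other balances turned. DLX5 and DLX6 each had 1 gained and 4 lost at equal list length, and TFAP2C had 3 gained and 5 lost when peaks had to cover 50% of a region. SNAI2 had 2 gained and 0 lost with the widest 50% of peaks, and GATA3 had 4 gained and 1 lost over 1 kb from gene ends. TFAP2B had 1 gained and 1 lost with the widest 50% of peaks, and 3 of each with the cover of 50%.

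**Figure D2:**
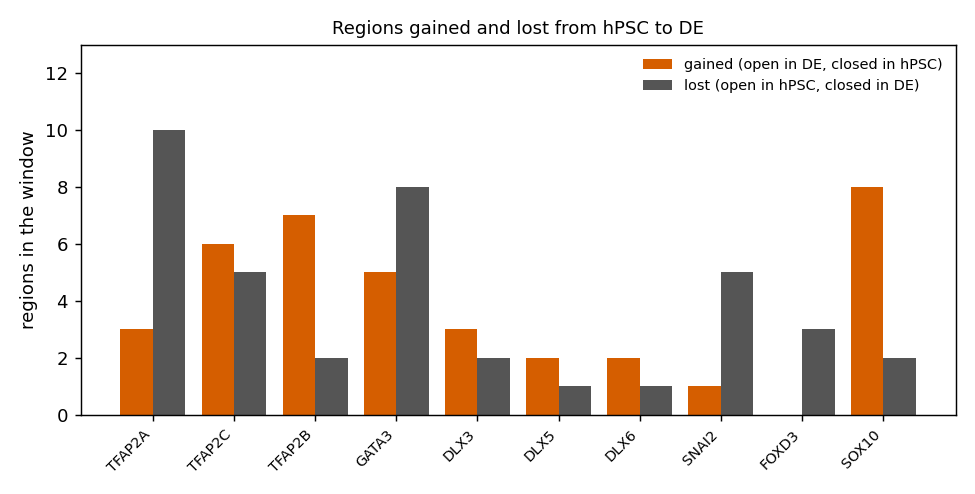
Number of regions gained and lost from hPSC to DE in the window of each gene. TFAP2A lost 10 and gained 3, while SOX10 gained 8 and lost 2; the DLX5 and DLX6 windows share regions.

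TFAP2A lies at chr6:10396677-10419659 on the minus strand and had 38 regions, 11 of them open in all 10 lists. Its open regions numbered 28 in hPSC, 21 in DE, 19 in aNE and 18 in pNE, then 20, 18 and 20 in aNE_T, aNE_M and aNE_H and 22, 23 and 29 in pNE_T, pNE_M and pNE_H. By number of regions DE thus lay between hPSC and both day 2 lists. By bases inside peaks it did not. DE had 9552 bp, the lowest of the 10 lists, beside 13566 in hPSC, 10965 in aNE and 10575 in pNE. At the inner start, chr6:10412040-10413149 was open in all 10, with 639 (DE) to 954 bp (pNE_M) of peak. At the outer start, chr6:10419264-10419797 carried 500 bp of peak in hPSC, 209 in DE, 234 in pNE_M and 220 in pNE_H, and none in the other 6 lists. Both aNE and pNE lacked this outer start peak, and no aNE-derived list had it on day 4.

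The widest distal region that DE gained at TFAP2A was chr6:10375408-10375936, outside any annotated gene and 8816 bp from the nearest gene end. Peaks covered 420 bp in DE, 481 in aNE and 364 in pNE, and 355 to 446 bp in the 6 day 4 lists. This region and chr6:50889647-50890252 at TFAP2B were the 2 of the 35 gained regions that were open in all 8 later lists (5.71%, against 7.6%). The TFAP2B region had 112 bp of peak in DE, the width of the shortest peak of that list. Gains named below at TFAP2C, DLX5 with DLX6, and SNAI2 also had 112 bp in DE. At TFAP2A the widest region closed in DE and open on day 4 was chr6:10349081-10349641, with 187 bp in hPSC, 247 in pNE_T and 380 in pNE_H. Peak width also changed within a region open in all lists, picked out after its values were seen. At chr6:10416824-10417935, inside the gene between its starts, peaks covered 1045 bp in hPSC, 1016 in DE, 1003 in aNE, 989 in pNE and 985 in aNE_T. The other 5 day 4 lists had 186 to 259 bp there. This division of the lists was made from these same widths, so the gap between them is no separate result. The widest cover was 5.62 times the narrowest here. It was 6.61 times at a TFAP2C region open in all lists, 6.23 at one of GATA3 and 5.67 at one of SNAI2.

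TFAP2C (chr20:56629306-56639283) had 32 regions, with 16 open in hPSC, 17 in DE, 11 in aNE and 12 in pNE. The day 4 counts were 10, 12 and 15 in aNE_T, aNE_M and aNE_H and 15, 14 and 18 in pNE_T, pNE_M and pNE_H. Of its 17 DE regions 9 were open in aNE and 9 in pNE (52.9% each), the lowest share among the 10 genes. Its lower gene end, chr20:56629021-56629403, was open in every list with 212 to 368 bp. The widest distal gain in DE, chr20:56609057-56609591, had 514 bp in DE and 344 in aNE and no peak elsewhere. One short region of 112 bp, chr20:56598905-56599016, was open in DE alone. A region open only in the pNE-derived day 4 lists, chr20:56664459-56665245, had 208 bp in pNE_T, 707 in pNE_M and 586 in pNE_H. It was also the widest region here that was closed in DE and open on day 4.

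TFAP2B (chr6:50818355-50847619) had 37 regions and the smallest number open in hPSC relative to its regions. The counts were 11 in hPSC, 16 in DE, 13 in aNE and 13 in pNE, then 15, 13 and 14 in aNE_T, aNE_M and aNE_H and 15, 19 and 23 in pNE_T, pNE_M and pNE_H. The nearest open region to its annotated start at 50818871 was open in all 10 lists but did not reach the 250 bases printed above. The widest distal gain in DE, chr6:50835862-50836605 inside the gene, had 125 bp in DE and 546 in pNE, and was closed in aNE. Its day 4 widths were 479 bp in aNE_M, 356 in aNE_H, 496 in pNE_T, 681 in pNE_M and 723 in pNE_H, with no peak in aNE_T. The widest region closed in DE and open on day 4, chr6:50880790-50881348, went the other way by origin. Peaks covered 543 bp in pNE, 292 in aNE_H, 515 in aNE_M and 234 in aNE_T, while none of the 3 pNE-derived day 4 lists had one. When lists were cut to their widest peaks at equal length, TFAP2B had 3 gains and 2 losses.

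GATA3 (chr10:8045333-8075198, plus strand), a zinc finger factor of surface ectoderm, had 43 regions. Its open regions numbered 21 in hPSC, 18 in DE, 21 in aNE and 19 in pNE, then 19, 18 and 15 in aNE_T, aNE_M and aNE_H and 24, 20 and 30 in pNE_T, pNE_M and pNE_H. At the outer start, chr10:8044948-8045516 was open in all 10 with 249 to 447 bp. DE lacked peaks at 3 regions inside the gene that the other 9 lists had. The region around the start at 8053641, chr10:8053350-8054008, had 258 bp in hPSC, none in DE, 529 in aNE, 594 in pNE and 472 to 659 bp on day 4. Around the start at 8054688, chr10:8054321-8054779 had 286 bp in hPSC, none in DE, 326 in aNE, 410 in pNE and 219 to 375 bp on day 4. Just before them, chr10:8051358-8052179 had 602 bp in hPSC, none in DE, 602 in aNE, 655 in pNE and 145 to 758 bp on day 4. In DE no peak was listed from 8051080 to 8061283, a stretch of 10204 bp inside the gene. Longer stretches without a peak lay elsewhere in the gene in aNE (11276 bp), pNE (11591), aNE_M (11133) and pNE_M (11667), all between 8063325 and 8075067. Both G and C rich stretches printed above for 8053641 and 8054688 fall in the DE gap.

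Across the gene body DE had 7 peaks covering 1799 bp, against 8 to 13 peaks and 2273 to 4005 bp in the other 9 lists. Regions open in every list but DE numbered 4 at the 10 genes (1.42%, against 0.213% of all regions). They were these 3 and chr7:97021143-97022077 inside DLX5. This pattern was picked out after the values were seen. The same count for the other lists was 2 for hPSC (0.709%, against 1.15%), 0 for aNE (against 0.594%), 1 for pNE (0.355%, against 0.0776%), 2 for aNE_T (against 0.204%), 2 for aNE_M (against 0.0748%), 3 for aNE_H (1.06%, against 0.379%), 1 for pNE_T (against 0.827%), 2 for pNE_M (against 0.696%) and 0 for pNE_H (against 0.0875%). DE thus had the highest number, by 1 region over aNE_H. At equal list length, keeping the widest peaks, 0 regions met it, and with the upper 50% of peaks by width 1 did. Gains of DE at GATA3 numbered 5. By DE peak the widest was chr10:8086308-8086722, with 402 bp in DE, 345 in aNE and 167 in aNE_T and no peak elsewhere. This region was chosen after its values were seen. The widest merged region among the distal gains, chr10:8112289-8112743, had 163 bp in DE, none in aNE or aNE_T, 125 in pNE and 143 to 433 bp in the other day 4 lists. Open in DE alone were chr10:8039785-8039949 (165 bp) and chr10:8008649-8008774 (126 bp, inside TAF3).

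**Figure D3:**
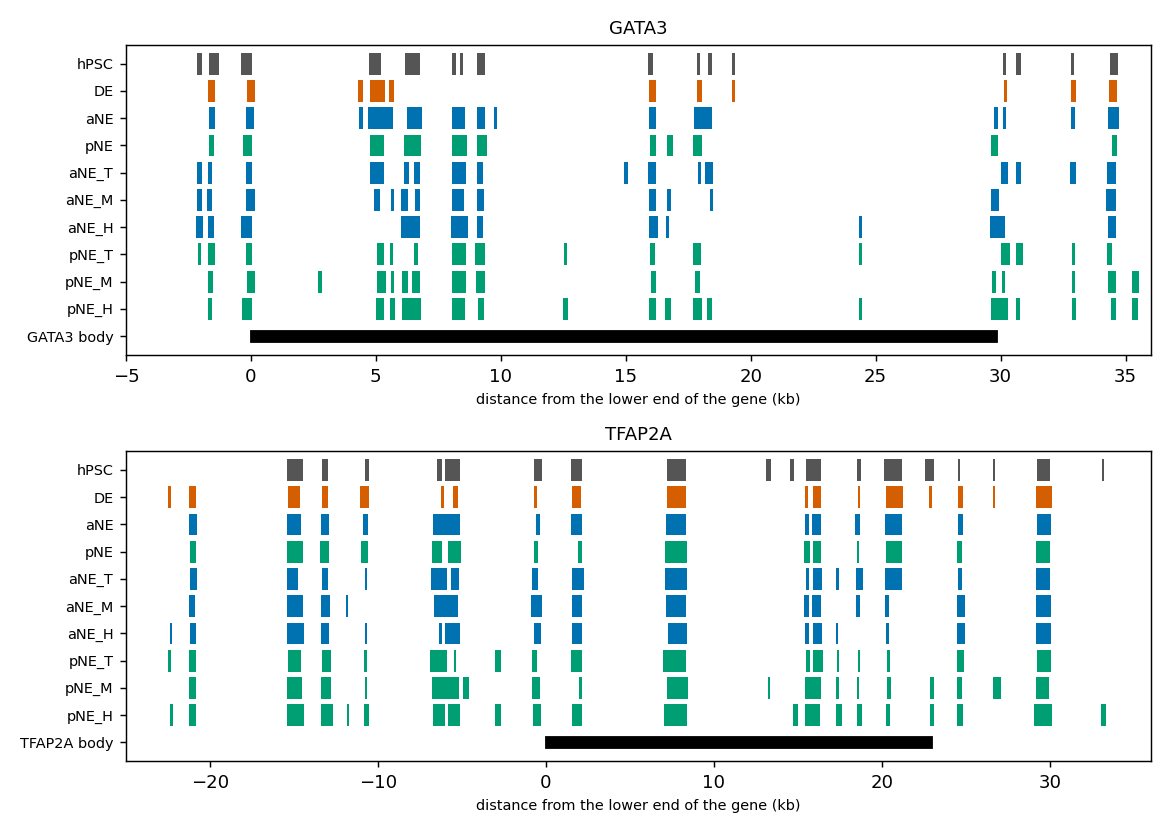
Peaks of each list (blocks, drawn to scale) around GATA3 and TFAP2A against distance in kb from the lower end of the gene, with the gene body in black. Between the DE peaks in the first part of GATA3 and those farther inside lies the DE gap of 10204 bp where the other 9 lists have peaks; at TFAP2A the wide block of hPSC, DE, aNE, pNE and aNE_T is narrow in the other 5 lists.

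The DLX genes encode homeobox factors, and DLX5 and DLX6 are neighbours transcribed toward each other. DLX3 (chr17:49990005-49995224) had 33 regions, 15 of them open in all lists. Its counts were 24 in hPSC, 25 in DE, 19 in aNE and 20 in pNE, and 18 to 21 in the 6 day 4 lists. The region at the upper gene end, chr17:49994413-49995533, had 437 (pNE_M) to 1056 bp (pNE) of peak. The widest distal gain, chr17:49956795-49957328, was open in DE alone with 534 bp. It was the widest of the 10 regions open only in DE, whose other members had 112 to 296 bp. A second region of DE alone, chr17:49987327-49987454, had 128 bp. Counting by nearest gene left 9 of the 25 DE regions with DLX3, since DLX4 lies in its window.

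DLX5 (chr7:97020396-97024831) had 22 regions and DLX6 (chr7:97005553-97011040) 21. For DLX5 the counts were 14 in hPSC, 15 in DE, 15 in aNE, 14 in pNE, 14, 12 and 14 in aNE_T, aNE_M and aNE_H, and 13, 12 and 18 in pNE_T, pNE_M and pNE_H. The start region of DLX6, chr7:97005292-97007444, was the broadest of the named regions, with 1354 (DE) to 2047 bp (aNE_H). The region at the upper end of DLX5, chr7:97023826-97025115, had 708 (aNE_H) to 1133 bp (hPSC). DE regions at DLX5 were open in aNE in 93.3% and in pNE in 86.7% of cases, the highest shares among the 10 genes. The widest distal gain, chr7:97026385-97026701, had 112 bp in DE, 271 in aNE, 269 in pNE and 144 to 209 bp on day 4, with no peak in aNE_T. The region inside DLX5 that DE alone lacked had 587 bp in hPSC, 579 in aNE, 726 in pNE and 152 to 935 bp on day 4. One region, chr7:97030587-97030806, was open in DE alone with 220 bp.

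SNAI2 (chr8:48917598-48921429) had the lowest share open in DE of the 10 genes, 7 of 25 regions. Its counts were 11 in hPSC, 7 in DE, 6 in aNE and 9 in pNE, then 6, 10 and 12 in aNE_T, aNE_M and aNE_H and 11, 11 and 21 in pNE_T, pNE_M and pNE_H. The region at the upper gene end, chr8:48921214-48922195, had 848 to 968 bp in all 10 lists, so this end of the gene was open throughout while the window around it varied. The widest region closed in DE and open on day 4, chr8:48899347-48900243, had no peak in hPSC, DE or aNE, 697 bp in pNE and 341 to 897 bp in all 6 day 4 lists. This pattern, closed in hPSC, DE and aNE and open in the other 7 lists, was found at 1 more of the 282 regions, at TFAP2C (0.709% for both, against 0.621%). A region at chr8:48909256-48910115, chosen after its values were seen, had 858 bp in pNE_M and 830 in pNE_H and no peak elsewhere. The single gain in DE, chr8:48912080-48912539, had 112 bp in DE, none in aNE, 231 in pNE and 437 in pNE_H. Peaks also covered 303 bp of this region in aNE_M, 281 in aNE_H and 160 in pNE_M, while aNE_T and pNE_T lacked one. All 5 losses at SNAI2 had 113 to 125 bp in hPSC, close to the shortest peak of that list, 113 bp. None was left as a loss when lists were reduced to their widest peaks.

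FOXD3 (chr1:63322567-63325128, plus strand) gained no region in DE. Its counts were 14 in hPSC, 11 in DE, 9 in aNE and 9 in pNE, then 8, 8 and 9 in aNE_T, aNE_M and aNE_H and 9, 8 and 10 in pNE_T, pNE_M and pNE_H. At the start, chr1:63322250-63324240 had 879 bp of peak in hPSC, 1184 in DE and 1312 to 1991 bp in the 8 later lists. The block at the start was thus narrowest in hPSC. Away from the start, the 3 lost regions were open in hPSC alone: chr1:63299202-63299525 (324 bp), chr1:63305575-63305711 (137 bp) and chr1:63305914-63306238 (325 bp). Beside these lay chr1:63304435-63304745, with 203 bp in hPSC, 293 in DE and 187 in aNE. Also there was chr1:63305134-63305319, with 186 bp in hPSC and 146 in DE. Both neighbours were chosen after their values were seen. No later list had a peak at any of these 5 apart from aNE at the one named, so the stretch was closed in pNE and on day 4. With windows of 500 bp at peak midpoints, which join such neighbours, 1 region counted as lost, and 1 region counted as gained when peaks had to cover 50% of it.

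SOX10 (chr22:37972312-37984555) had 33 regions, with 18 open in hPSC, 24 in DE, 16 in aNE and 17 in pNE. Its day 4 counts were 19, 18 and 18 in aNE_T, aNE_M and aNE_H and 18, 15 and 25 in pNE_T, pNE_M and pNE_H. The region at the upper gene end, chr22:37984223-37985240, had 447 to 1010 bp in all 10 lists. It also lies in POLR2F, whose body overlaps that end. The widest distal gain, chr22:38007244-38008002 in POLR2F, had 272 bp in DE, 254 in aNE, 528 in pNE and 223 to 759 bp on day 4, with no peak in pNE_T. The SOX10 window held 4 of the 10 regions open in DE alone. The widest was chr22:37936178-37936473 with 296 bp, inside MICALL1, and the others lay inside POLR2F. Counting by nearest gene left 4 of the 24 DE regions and 1 of the 8 gained regions with SOX10. The widest region closed in DE and open on day 4 was chr22:38026333-38027146, in POLR2F, with 770 bp in aNE_M, 138 to 342 bp in 4 other day 4 lists and 180 in pNE.

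**Figure D4:**
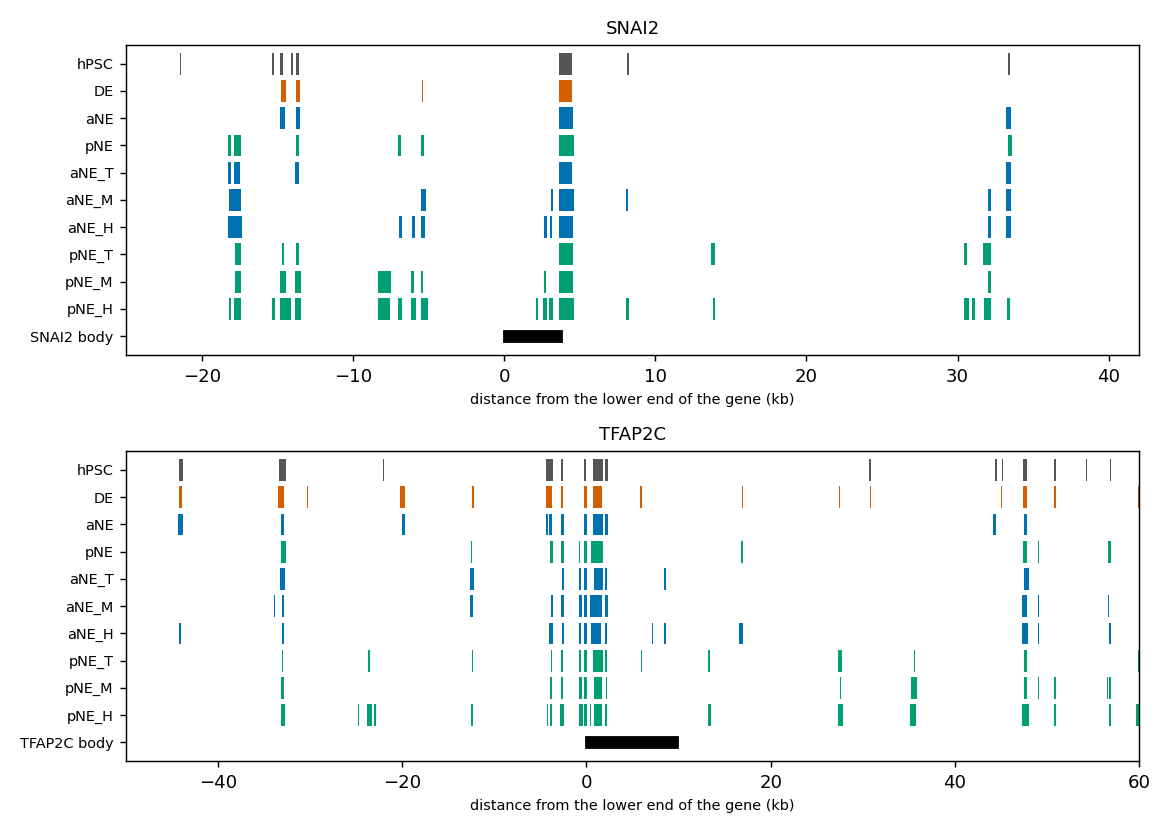
Peaks of each list (blocks, drawn to scale) around SNAI2 and TFAP2C against distance in kb from the lower end of the gene, with the gene body in black. SNAI2 has its gene-end peak in all 10 lists, DE has 7 regions open in the window and pNE_H has 21; TFAP2C has a DE and aNE peak of 514 and 344 bp that no other list has.

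Both day 2 lists kept most of what DE held at these genes. Of the 154 DE regions, 113 were open in aNE (73.4%, against 60.9% of all DE regions) and 108 in pNE (70.1%, against 62.4%). On day 4 the numbers were 109 in aNE_T (70.8%, against 63.8%), 102 in aNE_M (66.2%, against 62.8%) and 101 in aNE_H (65.6%, against 57.7%). The pNE-derived lists had 106 in pNE_T (68.8%, against 55.3%), 105 in pNE_M (68.2%, against 54.2%) and 115 in pNE_H (74.7%, against 65.5%). The share was above that of all DE regions in each of the 8 lists. In no later list did it fall under 65.6%. Closed in both day 2 lists were 32 regions (20.8%, against 29.3%), and open in all 8 later lists were 76 (49.4%, against 37.7%).

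Kept regions were mainly those shared with hPSC. Of those 119, 101 were open in aNE (84.9%, against 75.3%) and 95 in pNE (79.8%, against 77.1%). On day 4 there were 96 in aNE_T (80.7%, against 76.6%), 88 in aNE_M (73.9%, against 76.0%) and 91 in aNE_H (76.5%, against 71.5%). From pNE, there were 94 in pNE_T (79.0%, against 68.4%), 95 in pNE_M (79.8%, against 67.6%) and 99 in pNE_H (83.2%, against 77.8%). Only in aNE_M did the share at the 10 genes lie under that of all regions. Of the 35 gained in DE, 12 were open in aNE (34.3%, against 30.7%) and 13 in pNE (37.1%, against 31.5%). On day 4 these were 13 in aNE_T (37.1%, against 36.8%), 14 in aNE_M (40.0%, against 35.1%) and 10 in aNE_H (28.6%, against 28.8%). In the pNE-derived lists they were 12 in pNE_T (34.3%, against 27.9%), 10 in pNE_M (28.6%, against 26.3%) and 16 in pNE_H (45.7%, against 39.8%). In either day 2 list 18 were open (51.4%, against 43.1%). With 35 regions these shares lie close to the background and rest on few regions each. When all lists were cut to the same length by width, DE-gained regions numbered 20, of which 55% were open in aNE (against 48.7%) and 20% in pNE (against 36.2%). The share in pNE thus moved from above to under that of all regions.

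**Figure D5:**
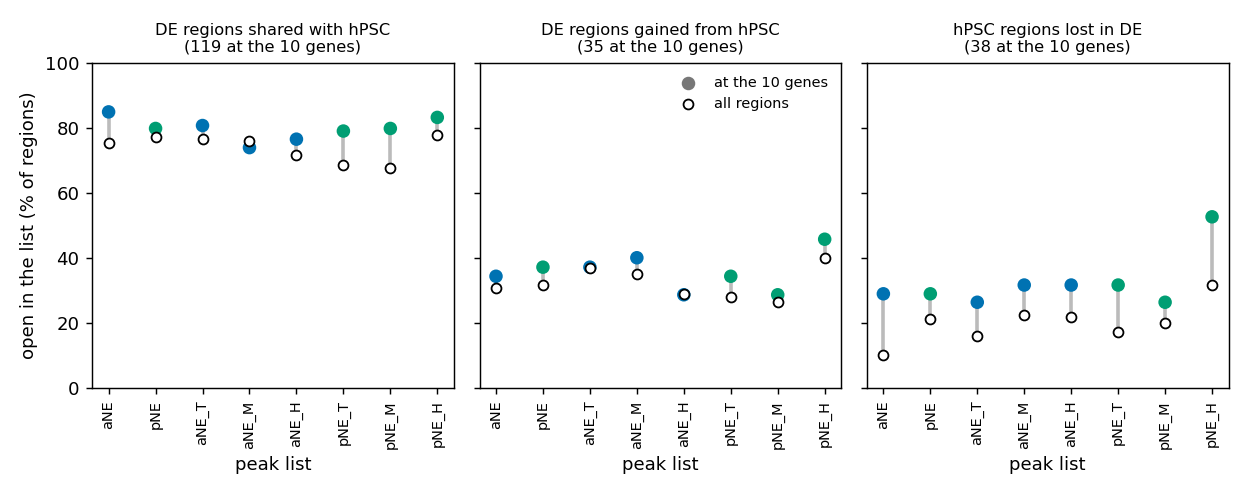
Percentage of regions open in each later list, for DE regions shared with hPSC (119), DE regions gained from hPSC (35) and hPSC regions lost in DE (38). Filled points are the regions at the 10 genes (blue for aNE and its day 4 lists, green for pNE and its day 4 lists), open circles are all regions of the same kind; shared regions stay above 73% in every list, gained ones lie between 28.6% and 45.7%.

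Some regions that DE lacked were open again a day later, a description added after the values were seen. Of the 38 regions lost from hPSC to DE, 11 were open in aNE (28.9%, against 10.2% of all lost regions) and 11 in pNE (28.9%, against 21.0%). In either day 2 list there were 15 (39.5%, against 24.8%). In any of the 8 later lists there were 26 (68.4%, against 47.6%). The 15 comprised 5 at GATA3, 4 at TFAP2A, 3 at TFAP2C and 1 each at DLX3, DLX5 with DLX6, and SNAI2. None lay at TFAP2B, FOXD3 or SOX10. On day 4, 10 were open in aNE_T (26.3%, against 16.0%), 12 each in aNE_M, aNE_H and pNE_T (31.6%, against 22.5%, 21.7% and 17.2%), 10 in pNE_M (26.3%, against 19.8%) and 20 in pNE_H (52.6%, against 31.7%). At TFAP2A, chr6:10450420-10450946 had 527 bp in hPSC, none in DE and 271 in aNE, and chr6:10463940-10464380 had 312 bp in hPSC, none in DE, 292 in aNE and 124 in pNE. The aNE share stayed above that of all lost regions in all 8 other settings tried, from 21.4% against 9.95% to 50% against 27.4%. Other lists differed by distance. Over 1 kb from a gene end, 5 of 28 lost regions were open in pNE (17.9%, against 21.0%). There were 3 in aNE_T (against 15.8%) and 6 in aNE_M (21.4%, against 22.4%). In each remaining later list the distal share lay above that of all such regions. Of the 10 lost regions within 1 kb of a gene end, 6 were open in pNE (against 21.3%), 7 in aNE_T (against 17.8%) and 6 in aNE_M (against 22.9%). Most of these 10 lay at GATA3, where only 1 of the 8 lost regions was over 1 kb from a gene end. The gene-end counts thus rest largely on a single locus.

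The day 2 lists differed from each other at 44 of the 152 regions open on day 2. Open in aNE alone of both were 21 (13.8%, against 12.4%), and in pNE alone 23 (15.1%, against 28.5%). The order of these counts at the 10 genes depended on the setting. Requiring peaks to cover 50% of a region gave 32 for aNE alone and 25 for pNE alone, and equal list length gave 31 and 18. Of the 282 regions, 110 were closed in DE and open in at least 1 day 4 list (39.0%, against 46.9%), and 75 were closed in all 4 lists of days 0 to 2 (26.6%, against 35.0%).

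On day 4 the pNE_H list had most member regions open, 195 (69.1%, against 60.9%), and 20 of them were open in no other list (10.3%, against 17.4%). The other day 4 lists had 132 in aNE_T (46.8%, against 38.0%), 128 in aNE_M (45.4%, against 41.7%), 135 in aNE_H (47.9%, against 38.9%), 147 in pNE_T (52.1%, against 41.3%) and 143 in pNE_M (50.7%, against 41.0%). On day 2, 129 were open in aNE (45.7%, against 32.0%) and 131 in pNE (46.5%, against 39.1%). The pNE_H list is also the longest, and at equal list length it had 56.2% of member regions open (against 45.4% of all regions), beside 57.6% in aNE (against 43.6%), 55.4% in hPSC (against 43.9%) and 50.0% in DE (against 43.9%). At equal length DE no longer held more than aNE, and pNE_H no longer stood apart. Open only in pNE-derived day 4 lists were 55 regions (19.5%, against 24.4%), and only in aNE-derived ones 10 (3.55%, against 5.23%). Open in all 3 pNE-derived lists and no other were 4 (1.42%, against 1.51%): the TFAP2C region above, chr10:8095630-8096310 at GATA3, and chr6:50809564-50809856 and chr6:50874502-50874812 at TFAP2B. None was open in all 3 aNE-derived lists alone (0.00%, against 0.0578%).

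Other genes of the same fates were described from a list of 23, counted in the gene body with the same 50 kb flanks. These windows grow with gene length, and some overlap (DLX4 with DLX3, KRT8 with KRT18). Of these 16 gained more regions than they lost in DE, 5 lost more and 2 were equal, with a median of 5.0 gained and 3.0 lost. Surface ectoderm genes (10, such as the epidermal factors TP63 and GRHL2) had 6 with more gains and 4 with more losses. The 4 preplacodal genes had 3 and 1, and the 9 crest genes had 7 and 0 with 2 equal. EYA2, a placodal transcription cofactor, had the most gains, 31 against 3 losses, and TWIST1, a crest and mesenchyme factor, had 0 gains and 0 losses. The EYA2 window held 100 regions and that of TWIST1 10, so these numbers also reflect how many regions a window holds. The median share of DE regions open in aNE was 63.4% for the 23 genes, 75.6% for the 10 members and 66.7% for all protein-coding genes. For pNE it was 66.7%, 72.4% and 66.7%. Of 6 neural genes counted beside them, including SOX1 and PAX6, 2 had more gains, 3 more losses and 1 was equal.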

How the data were processed

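Per the file contents, the authors deposited 1 peak list for each of 10 groups, giving chromosome, start and end in 3 columns without a score. The submitters' processing notes name hg38, FastQC, Bowtie2, MACS2, bedtools, featureCounts, edgeR and deepTools. The threshold for a peak and the way the 3 replicates of a group were joined are not given in the sources used here. Both affect how many peaks a list holds. Autosomal (1 to 22), X and Y peaks of all lists were merged at an overlap of at least 1 bp, and regions were matched to gene bodies with 50 kb each side from RefSeq (GRCh38.p14), whose gene table gives no strand. Width in bp is the summed overlap of a list's peaks with a region. Depth per library is unknown. No test was made, since no list holds a value per replicate.

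The members and lists were chosen with earlier results of these data known. All 10 genes are named. Named regions per gene were the region at a start (or at a gene end where no start was given), the widest region over 1 kb from a gene end gained in DE, all regions of DE alone (the widest where over 3), and the widest closed in DE and open on day 4. Other regions are said to be chosen after their values were seen, or are named as members of a counted set. Of the other pathway genes, those with most and fewest gains are named, and 1 gene of that list is not reported here. Alternatives were a peak cover of at least 50% of the region, the widest 50% of each list, lists of equal length by width, windows of 500 bp at peak midpoints, 10 kb and 100 kb flanks, nearest protein-coding gene, and regions over 1 kb from a gene end. Python 3.11.15 with pandas 2.3.3 and numpy 2.4.6 was used, and the code was tested on simulated lists.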

Additional observations from a re-analysis of the deposited data

Results flagged for a closer look

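At 4 genes the number of open regions moved in opposite directions between hindbrain and telencephalon medium according to origin, given as the count in H minus the count in T. For TFAP2B it was -1 in the aNE-derived lists and 8 in the pNE-derived lists. DLX3 had -3 and 1. GATA3 had -4 (15 and 19 regions) and 6 (30 and 24 regions). SOX10 had -1 and 7. Over all regions the same differences were 4174 and 96826, so the pNE_H list is longer than pNE_T everywhere. The difference between origins was not tested, since each group has 1 list, and plating density moves with origin.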

How the results depend on the processing

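No paired analysis was possible because each group has 1 list and no value per replicate, and leaving out a replicate could not be run for the same reason. Orders between counts did turn, as did some shares against those of all regions. Requiring peaks to cover 50% of a region gave 32 aNE-only beside 25 pNE-only regions, 63.4% of DE regions kept in aNE and 51.8% in pNE, and 13.8% of DE-gained regions open in pNE_M (17.0% over all regions). The widest 50% of each list gave 88 regions open in DE, 21 gained, 23 lost, 6 in DE only, 13 aNE-only, 15 pNE-only, 71 closed in DE and open on day 4, 1 open in all lists but DE, and 14.3% of DE-gained regions open in pNE_T (27.4% over all regions). Equal list length gave 20 gained beside 32 lost, 6 in DE only, 31 aNE-only beside 18 pNE-only, 0 open in all but DE, 85.7% kept in aNE, and 50% of lost regions open in aNE. DE-gained regions were then open at 55% in aNE (48.7% over all regions), 20% in pNE (36.2%), 55% in aNE_T (45.1%), 15% in pNE_M (27.8%) and 30% in pNE_H (29.7%). Flanks of 10 kb gave 74 open in DE, 14 gained, 12 lost, 4 in DE only, 6 aNE-only, 6 pNE-only, 47 closed in DE and open on day 4, 79.7% kept in aNE, 78.4% in pNE and 21.4% of gained regions open in aNE_T (36.8% over all regions). Flanks of 100 kb gave 248 open in DE, 62 gained, 23 in DE only, 40 pNE-only and 177 closed in DE and open on day 4. Assignment to the nearest gene gave 4 in DE only, and regions over 1 kb from a gene end gave 0 open in all but DE. Wider or narrower flanks count more or fewer regions by construction. The cause of the other changes, shares with 10 kb flanks included, was not tested. Gained regions stayed a smaller share of DE regions at the 10 genes than over all regions in each of the 8 alternatives, from 17.9% against 27.2% to 27.8% against 35.1%. The settings for lost regions open again and for regions open in all but DE were chosen after seeing the data. Depth per library is unknown, and a closed region may lie just under the caller's threshold.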
